A study of Rattus norvegicus with 6 samples.

Results

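The proteasome genes were taken from 6 Agilent one-colour arrays of rat renal cortex by matching the RefSeq accession of each non-control probe to a rat gene symbol. Symbols starting with Psma, Psmb, Psmc, Psmd, Psme or Psmg, and Pomp, were kept, with Psmb8 and Psmb9 left out. This gave 44 genes, measured by 77 probes, of 15284 named genes on the arrays. The genes were matched by name and not by their difference between the groups. They comprise 8 genes of the alpha rings and 8 of the beta rings of the 20S core, 9 of the base and 7 of the lid of the 19S regulatory particle, 3 assembly chaperones of the 19S base, 4 activators and 3 assembly factors of the core. The remaining 2, Psmc3ip and Psme3ip1, match by the stem of their symbol and encode no subunit. Psmb11, Psmd11, Psmg1 and Psmg3 were not analysed here. Where a gene had several probes its brightest was used, and by that probe all 44 genes were well above background on all 6 arrays.

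Total RNA was taken from renal cortex. The rats were male, of the Sprague-Dawley strain, and 5 weeks old when bought. Of these, 3 received corn oil, the vehicle, and 3 received o-nitroanisole, a nitroaromatic compound, at 400 mg/kg/day, each for 4 weeks. Each rat gave 1 array, and all rats ate a basal diet. The comparison asks what this compound changes in kidney transcripts.

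The proteasome is the protease that degrades proteins tagged with ubiquitin in the cytosol and the nucleus. Its barrel-shaped 20S core has outer rings of alpha subunits, which gate the entrance, and inner rings of beta subunits, among which Psmb5, Psmb6 and Psmb7 carry the standard catalytic sites. The 19S regulatory particle binds ubiquitinated proteins, removes the ubiquitin and unfolds the protein with its ring of ATPases. Subunit genes are known to be raised together by the transcription factor NRF1 (Nfe2l1) when the proteasome is inhibited, and some also by NRF2 (Nfe2l2) under oxidative stress. Both factors bind antioxidant response elements. In the kidney, tubule cells take up and turn over much protein, and the proteasome handles the cytosolic share of it.

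Because these factors act at promoters, the RefSeq promoters of the genes (assembly GRCr8, from 250 bases before to 50 bases after the annotated start) were searched on both strands for the element core, TGACNNNGC. Of the 44 genes, 40 had a promoter entry, and 8 of those (20%) held the letters, against 12.1% of all 33469 promoters and 14.4% of the 9643 promoters of tested genes. The 8 were Psma3, Psmb2, Psmb5, Psmb6, Psmd1, Psmd3, Psmd9 and Psme4. The 130 bases just before the start, 5′ to 3′ on the gene's strand, are given for 5 genes on which the results turn. Capitals mark matches to the element core on either strand. Psmd9 is shown as the only one of the 5 with 2 matches, Psmb6 and Psmb5 as catalytic subunits with 1 match each, and Psme3 and Psmd7 as the genes with the highest and the lowest difference between the groups, which had no match in the full 300 bases.
Psmd9, chr12:39018265-39018394, minus strand: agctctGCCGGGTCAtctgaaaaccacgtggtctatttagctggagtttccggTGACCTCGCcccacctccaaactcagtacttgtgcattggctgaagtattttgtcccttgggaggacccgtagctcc
Psmb6, chr10:55737758-55737887, plus strand: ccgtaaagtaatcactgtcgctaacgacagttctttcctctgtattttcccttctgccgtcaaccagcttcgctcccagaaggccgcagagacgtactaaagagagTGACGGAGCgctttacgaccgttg
Psmb5, chr15:32047380-32047509, minus strand: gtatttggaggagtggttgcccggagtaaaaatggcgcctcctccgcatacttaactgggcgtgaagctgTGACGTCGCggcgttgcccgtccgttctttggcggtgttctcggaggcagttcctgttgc
Psme3, chr10:86757803-86757932, plus strand: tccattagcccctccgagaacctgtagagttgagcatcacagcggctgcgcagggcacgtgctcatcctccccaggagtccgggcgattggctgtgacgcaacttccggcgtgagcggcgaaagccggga
Psmd7, chr19:52411317-52411446, minus strand: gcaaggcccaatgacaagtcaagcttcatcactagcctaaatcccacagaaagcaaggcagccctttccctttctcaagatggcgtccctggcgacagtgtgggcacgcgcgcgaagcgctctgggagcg

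In the Psmd9 window the matches begin at positions -124 and -77 relative to the start, in Psmb6 at -24 and in Psmb5 at -60. The median log2 difference (o-nitroanisole minus corn oil) was 0.12 over the genes with a match and 0.08 over those without. Other short motifs, 3 in number, were counted in the same promoters. The CCAAT box (CCAAT) was in 19 of the 40 (47.5%) against 38.2% of tested genes' promoters, the GC box (GGGCGG) in 29 (72.5%) against 57.3%, and the ETS core (CGGAAG) in 22 (55.0%) against 28.3%. Each was searched on both strands, and matches of different motifs may share bases. For these motifs the median difference with and without a match was 0.09 in every case. A match describes letters and does not show a bound site.

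No proteasome transcript was called different between the groups, and the measured differences were small. No gene of the 44 passed an adjusted p of 0.05 in limma with default moderation. Among all 32428 tested features the share called was also 0.0%, with a smallest adjusted p of 0.0711. With the trend and robust options of limma, 1.61% of all features passed and again no proteasome gene, the smallest adjusted p being 0.0587 for Psme3. The log2 difference was above 0 for 38 of the 44 genes (86.4%), against 56.0% of all features. Its median was 0.09, a 1.06-fold higher level, against 0.03 over all features. The whole range ran from -0.15 (Psmd7) to 0.31 (Psme3). The median standard error (SE) of a difference was 0.07, and for 43 of the 44 genes the difference lay within 0.25 of 0. For single genes, the median standard deviation (SD) between rats of one group was 0.06 in both groups. On the arrays, the median deviation of the 44 genes from their corn oil means was 0.04, -0.02 and -0.02 in corn oil rats 1, 2 and 3 and 0.13, 0.04 and 0.09 in o-nitroanisole rats 1, 2 and 3. The pooled SD of this median between rats of one group was 0.04. The medians of the groups did not overlap, but o-nitroanisole rat 2 lay close to corn oil rat 1.

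The upward lean depended on how arrays were scaled and corrected for background. Scaling each array to its 75th percentile, the setting used throughout, gave 38 genes above 0, and scaling to the median gave 41. With quantile scaling only 25 of the 44 lay above 0 and the median difference was 0.01, while 51.2% of all features lay above 0. With normexp background correction 31 lay above 0, against 57.8% of all features. Counted by groups that did not overlap, 16 genes (36.4%) were higher on all o-nitroanisole arrays than on any corn oil array, against 17.6% of all features, and 1 gene, Psmd7, was lower, against 9.56%. With quantile scaling these counts were 4 higher (9.09%, against 13.2% of all features) and 4 lower (9.09%, against 11.5%).

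At an unadjusted limma p under 0.05, 4 genes (9.09%) were higher, against 11.8% of all features, and none was lower, against 7.12%. These 4 were Psme3, Psmd9, Psma6 and Psmb1. How this share stood against that of all features depended on the setting. With the trend and robust options 12 genes were higher (27.3%), against 13.0% of all features, and with normexp background correction 8 (18.2%), against 14.3%. In the default fit without corn oil rat 3 the count was 1 (Psme3, 2.27% against 8.6% of all features). Without o-nitroanisole rat 3 it was 2 (Psme3 and Psma6, 4.55% against 9.0%), with Psmb10 lower (2.27% against 6.81%). With quantile scaling it was 1 higher (Psme3, 2.27% against 8.79%) and 1 lower (Psmd7, 2.27% against 7.95%). The corn oil arrays shared slide 1 and the o-nitroanisole arrays slide 2, so slide and treatment cannot be told apart in any comparison here. RNA of whole cortex also cannot separate a change in the number of cells of a type from a change in RNA per cell.

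**Figure D1:**
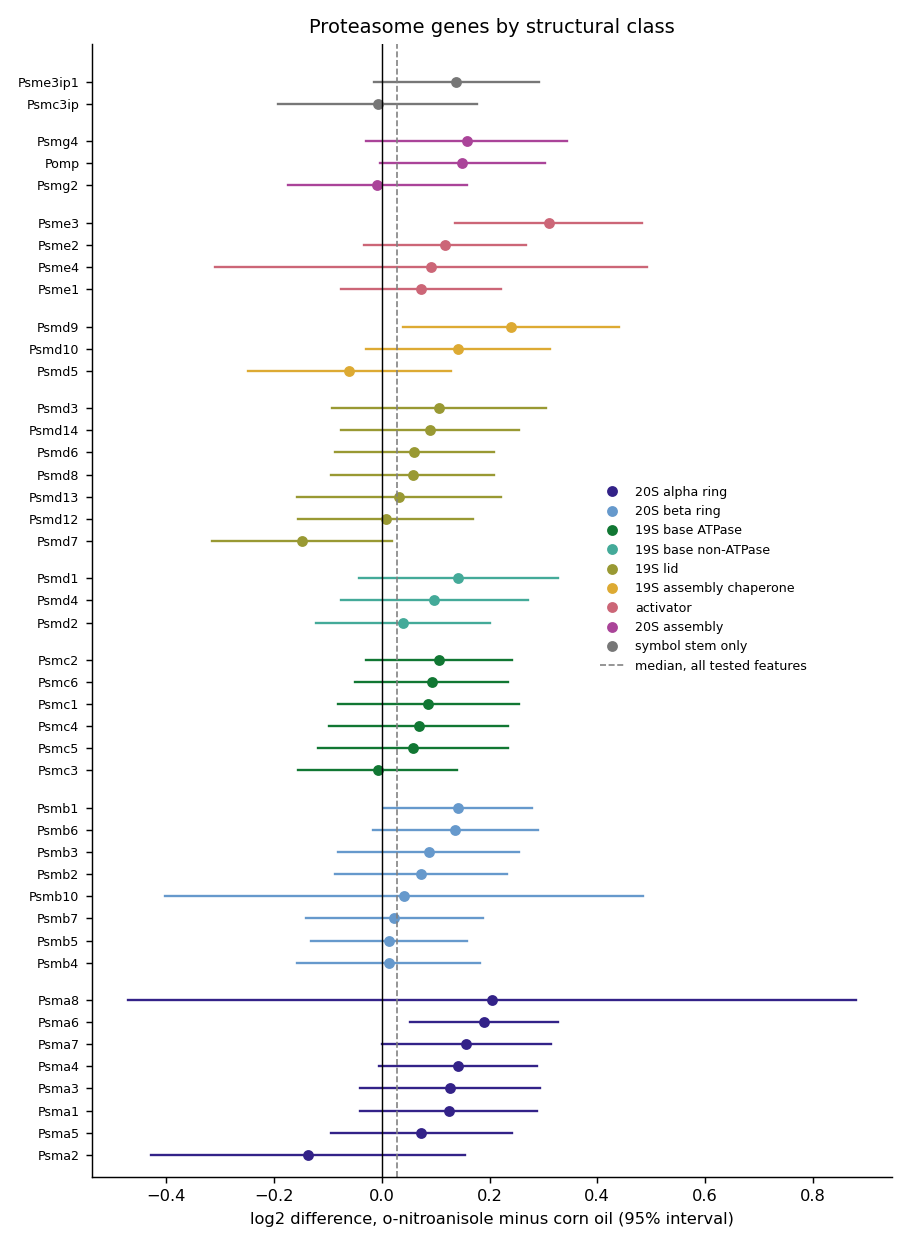
Log2 difference (o-nitroanisole minus corn oil) of the 44 genes with 95% intervals, ordered by structural class. Points lie mostly between 0 and 0.2; the intervals of 4 genes lie wholly above 0 and none lies wholly below.

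The alpha ring of the core leaned highest among the core classes. Of its 8 genes, 7 lay above 0 with a median of 0.13. On every o-nitroanisole array, 5 (Psma1, Psma3, Psma4, Psma6 and Psma7) were higher than on any corn oil array. This was 62.5%, against 17.6% of all features and 46.4% of those in the brightest decile, where these 5 lay. The dimmer probe gave 0.12 for Psma1, -0.03 for Psma3, -0.09 for Psma4 and 0.03 for Psma6. Psma6 measured 5.50, 5.43 and 5.44 in corn oil rats and 5.67, 5.63 and 5.63 in o-nitroanisole rats, on the scale of log2 signal relative to the array's 75th percentile. The groups were separated by a narrow gap. The difference of Psma6 was 0.19 ± 0.06 (SE, n = 3 per group, 1.14-fold, adjusted p = 0.172 in limma). Psma7 followed with a difference of 0.16 ± 0.06 (adjusted p = 0.265). Psma2 was the only alpha gene below 0, at -0.14 ± 0.12 (adjusted p = 0.571). Its levels were 3.36, 3.29 and 3.37 in corn oil rats and 3.30, 2.96 and 3.35 in o-nitroanisole rats, so that rat 2 alone was low and the groups overlapped. Psma8, the alpha subunit known from the testis, gave 0.21 ± 0.27, the widest error of all 44. Its probe fell in the dimmest decile of tested features, with levels of -5.52, -5.09 and -5.06 against -4.45, -5.26 and -5.35. The other probes of Psma8 were well above background on no array. Only o-nitroanisole rat 1 stood above the rest, and without Psma8 the median of all members was still 0.09.

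All 8 beta ring genes lay above 0, but within a span of 0.01 to 0.14 and with a median of 0.06. The catalytic subunits differed among themselves. Psmb5, which carries the chymotrypsin-like site, measured 4.59, 4.48 and 4.53 in corn oil rats and 4.56, 4.54 and 4.54 in o-nitroanisole rats. Its o-nitroanisole values lay inside the corn oil range, and the difference was 0.01 ± 0.06 with a 95% interval from -0.13 to 0.16. Psmb7, with the trypsin-like site, measured 3.14, 3.18 and 3.19 against 3.28, 3.20 and 3.11, a difference of 0.02 ± 0.07 (95% interval -0.14 to 0.19). Psmb6, with the caspase-like site, measured 2.85, 2.75 and 2.79 against 2.96, 2.96 and 2.88. Here the groups did not overlap, and the difference was 0.14 ± 0.06 (adjusted p = 0.308). Of the non-catalytic beta subunits, Psmb1 was highest, with 3.42, 3.39 and 3.35 against 3.56, 3.51 and 3.51 and a difference of 0.14 ± 0.06 (adjusted p = 0.257). Psmb4 was lowest, with 5.12, 5.02 and 5.03 against 5.12, 4.98 and 5.11 and a difference of 0.01 ± 0.07. Its groups overlapped throughout.

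Psmb10, the interferon-inducible subunit that takes the place of Psmb7 in the immunoproteasome, varied more between rats than any other beta ring gene. Corn oil rats measured 2.54, 2.56 and 2.55, and o-nitroanisole rats 2.38, 2.40 and 3.01. Thus 2 treated rats lay below all controls and the third above them, with an SD of 0.36 in the o-nitroanisole group and 0.01 in the corn oil group. The difference was 0.04 ± 0.18 (adjusted p = 0.920), and without o-nitroanisole rat 3 it turned to -0.17. For genes of antigen processing and the interferon gamma response, rat 3 was likewise the highest among o-nitroanisole rats in all 7 tested (of 9 listed). Tap2 and Tapbp, however, were highest of all in corn oil rat 3. That rat measured 1.34 for Tap2 and 0.73 for Tapbp, against 0.74 and 0.27 in o-nitroanisole rat 3. Tap1, a subunit of the peptide transporter, measured -2.12, -2.19 and -1.40 in the o-nitroanisole rats. In the same rats Gbp2, an interferon-induced GTPase, measured 0.33, 0.18 and 1.25, and Irf1, an interferon-responsive transcription factor, 1.74, 1.82 and 2.47. Over the 7 genes the median difference between the groups was -0.23, with 2 above 0 (28.6%, against 56.0% of all features). None had an unadjusted limma p under 0.05, against 11.8% of all features higher and 7.12% lower.

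**Figure D2:**
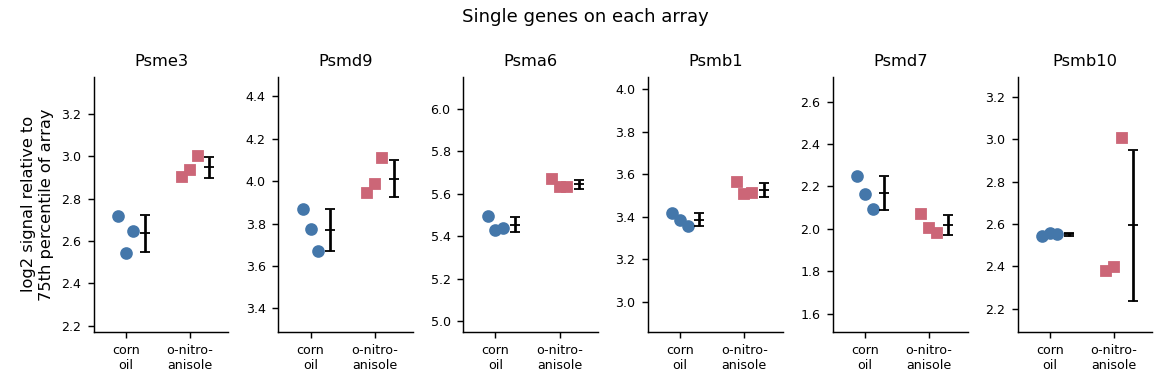
Log2 signal relative to the array's 75th percentile (vertical axis) of Psme3, Psmd9, Psma6, Psmb1, Psmd7 and Psmb10 in each rat (corn oil as circles, o-nitroanisole as squares), with the group mean and SD as bars. The first 4 genes are higher and Psmd7 is lower in every treated rat, and Psmb10 is split by o-nitroanisole rat 3 at 3.01.

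In the base of the 19S particle, the 6 ATPase genes Psmc1 to Psmc6, which unfold substrates and thread them into the core, had a median difference of 0.08. The lowest was Psmc3, with 3.29, 3.24 and 3.22 in corn oil rats and 3.30, 3.21 and 3.22 in o-nitroanisole rats and a difference of -0.01 ± 0.06. Its groups overlapped. Psmc2 was the highest, with 5.06, 5.01 and 5.06 against 5.18, 5.12 and 5.16, a difference of 0.11 ± 0.06 (adjusted p = 0.364). Psmc2 and Psmc6 were the ATPases whose groups did not overlap (33.3% higher, against 17.6% of all features). Among the 3 non-ATPase genes of the base, the scaffold Psmd2 differed by 0.04 ± 0.07, with 5.64, 5.55 and 5.50 against 5.63, 5.57 and 5.61. Psmd4, a ubiquitin receptor, measured 3.73, 3.63 and 3.56 against 3.80, 3.69 and 3.73, a difference of 0.10 ± 0.07 (adjusted p = 0.502). The other scaffold, Psmd1, gave 5.46, 5.31 and 5.36 against 5.61, 5.50 and 5.46, a difference of 0.14 ± 0.08. All 3 overlapped between the groups.

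The 7 lid genes had a median difference of 0.06, and 6 lay above 0. Psmd14, the deubiquitinase that cuts the ubiquitin chain off the substrate, measured 1.21, 1.25 and 1.13 in corn oil rats and 1.35, 1.22 and 1.29 in o-nitroanisole rats. The groups overlapped, with a difference of 0.09 ± 0.07 (95% interval -0.08 to 0.26). Psmd7, the partner of Psmd14 in the lid, was the only gene of the set whose brightest probe was lower without overlap. It measured 2.25, 2.16 and 2.09 in corn oil rats and 2.07, 2.01 and 1.98 in o-nitroanisole rats, so that every treated rat lay below every control, by a small gap. The difference was -0.15 ± 0.07 (0.902-fold, adjusted p = 0.310 in limma), and its probes ranged from -0.15 to -0.07. Psmd3 marked the upper end of the lid, with 1.98, 1.89 and 1.79 against 2.08, 1.99 and 1.91, a difference of 0.11 ± 0.08 with overlapping groups.

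The chaperones that assemble the 19S base, Psmd5, Psmd9 and Psmd10, spread widely. Psmd9 measured 3.87, 3.77 and 3.67 in corn oil rats and 3.94, 3.99 and 4.11 in o-nitroanisole rats. Every treated rat exceeded every control, and the difference was 0.24 ± 0.08 (1.18-fold, adjusted p = 0.209). All 3 probes of Psmd9 pointed the same way, from 0.22 to 0.33. Psmd9 is also the gene with 2 element cores in the window printed above. Psmd1 likewise held 2 in the full 300 bases, at -165 and 23, with a difference of 0.14. Psmb5 held a match at a difference of 0.01. A link between matches and differences was not tested. Psmd10, also known as gankyrin, differed by 0.14 ± 0.07 without overlap. Psmd5 lay below 0, with 0.81, 0.69 and 0.70 against 0.70, 0.57 and 0.75 and a difference of -0.06 ± 0.08.

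Activators bind the core in place of the 19S particle. Psme3, which encodes the nuclear activator PA28 gamma, had the largest difference of the 44 genes. It measured 2.72, 2.55 and 2.65 in corn oil rats and 2.90, 2.94 and 3.00 in o-nitroanisole rats. No treated rat came within the corn oil range. The difference was 0.31 ± 0.07 (1.24-fold, 95% interval 0.14 to 0.48, adjusted p = 0.132 in limma). This rests on 1 of its 2 probes, since the dimmer probe gave 0.03 ± 0.06. Psme1 and Psme2, the interferon-inducible PA28 alpha and beta, differed less. Psme1 measured 5.05, 4.96 and 5.03 against 5.07, 5.05 and 5.13 with overlap (0.07 ± 0.06), and Psme2 4.97, 4.84 and 4.88 against 5.03, 5.01 and 5.01 without overlap (0.12 ± 0.06, adjusted p = 0.363). Psme4, or PA200, measured 1.94, 1.59 and 1.74 against 1.73, 1.65 and 2.15. Rat 3 of the o-nitroanisole group was again the highest, and the difference was 0.09 ± 0.16.

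Among the factors that assemble the core, Pomp, the maturation protein that is itself the first substrate of the finished core, measured 5.83, 5.73 and 5.87 in corn oil rats and 5.95, 5.97 and 5.97 in o-nitroanisole rats. The groups did not overlap and the difference was 0.15 ± 0.06 (adjusted p = 0.275). Psmg4, a chaperone of the alpha ring, gave 2.64, 2.82 and 2.76 against 2.98, 2.86 and 2.86, a difference of 0.16 ± 0.08 without overlap. Psmg2, another alpha ring chaperone, gave -0.22, -0.07 and -0.18 against -0.11, -0.18 and -0.20, a difference of -0.01 ± 0.07 with full overlap. Of the genes that share only a symbol stem, Psme3ip1 differed by 0.14 ± 0.06 and Psmc3ip by -0.01 ± 0.07.

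The core and the regulatory particle were then set side by side. Of 16 core genes 15 lay above 0 with a median of 0.11, and 7 (43.8%) were higher without overlap, against 17.6% of all features. Of 16 regulatory particle genes 14 lay above 0 with a median of 0.06, and without overlap 2 (12.5%) were higher, against the same 17.6%, and 1 was lower, against 9.56% of all features. The difference between these medians was 0.04. The 2 particles also differed in brightness. All core genes but Psma8 lay in the 2 brightest deciles of tested features, where 46.4% and 29.5% of features were higher without overlap. Of the regulatory particle, Psmd3, Psmd7, Psmd13 and Psmd14 lay in the eighth decile, where that share was 21.7%. Per array, the median core deviation from the corn oil mean was 0.03, -0.02 and -0.01 in corn oil rats and 0.14, 0.03 and 0.09 in o-nitroanisole rats. The regulatory particle gave 0.05, -0.02 and -0.03 against 0.13, 0.04 and 0.04. For the core the groups did not overlap, and for the regulatory particle corn oil rat 1 lay above o-nitroanisole rats 2 and 3. Taken within each array, the core minus the regulatory particle was -0.02, -0.01 and 0.02 in corn oil rats and 0.01, -0.01 and 0.05 in o-nitroanisole rats. These ranges overlapped, so the 2 particles were not told apart at the precision of 3 rats per group. Leaving out single rats shifted the medians. Without o-nitroanisole rat 3 the core median exceeded that of the regulatory particle by only 0.006. Without o-nitroanisole rat 1 the medians were 0.07 for the core and 0.03 for the regulatory particle. With quantile scaling they were 0.01 and -0.001.

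**Figure D3:**
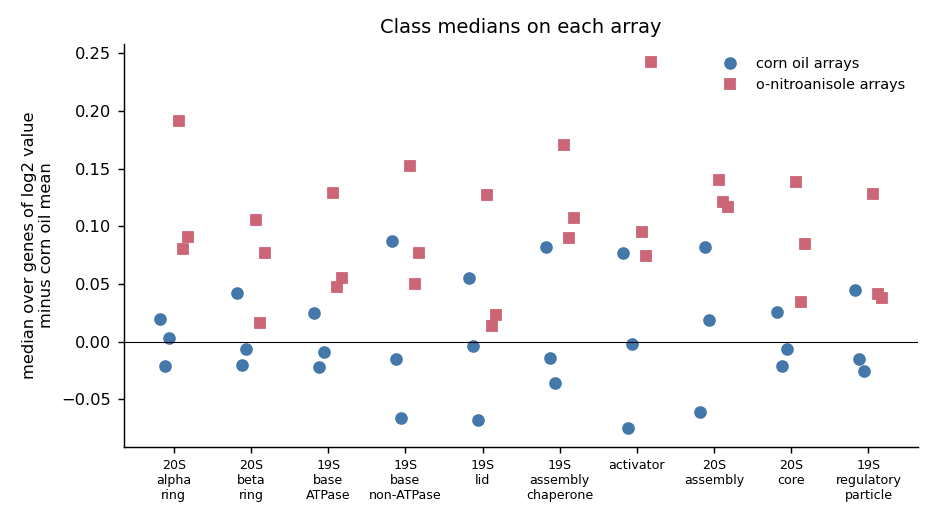
Median deviation of each structural class from its corn oil mean (log2, vertical axis) on each of the 6 arrays. For the core, corn oil rats lie between -0.02 and 0.03 and o-nitroanisole rats between 0.03 and 0.14.

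Brightness of the probes moved with the result. Deciles were taken by mean level over the 6 arrays, and 20 of the 44 genes fell in the brightest decile of all tested features, 13 in the next and 7 in the one after. In the brightest decile, all features together had a median difference of 0.11, 80.3% lay above 0 and 46.4% were higher without overlap. The 20 proteasome genes there had a median of 0.10, and 9 were higher without overlap. In the next decile, all features had a median of 0.06 with 29.5% higher without overlap, and the 13 proteasome genes a median of 0.07 with 5 such genes. In the eighth decile, the medians were 0.04 for all features and 0.09 for the 7 proteasome genes, 2 of which were higher without overlap. In the 2 brightest deciles the proteasome genes thus lay near other features of like brightness. The part of brightness in the result was not tested.

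**Figure D4:**
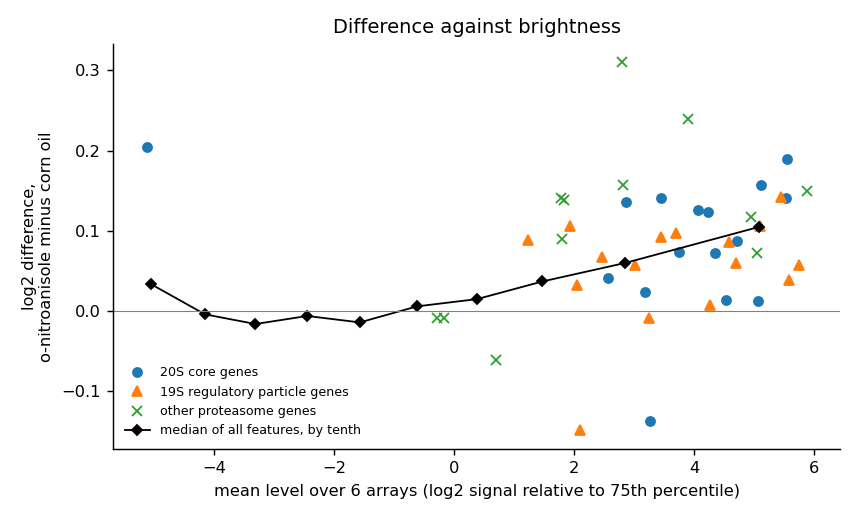
Log2 difference (o-nitroanisole minus corn oil) (vertical axis) against mean level over the 6 arrays (horizontal axis, log2 signal relative to the 75th percentile): black diamonds give the median of all features in each decile, and the other symbols single proteasome genes. The median of all features climbs to 0.11 in the brightest decile, where 20 of the 44 genes lie.

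Several probes of one gene gave different answers. Of 23 genes with more than 1 tested probe, the brightest probe gave the higher difference in 19 (82.6%), against 56.1% of 6111 named genes with several tested probes. Over the 23 genes the median was 0.09 with the brightest probe and 0.03 with the dimmest, against 0.04 and 0.03 over the 6111. The signs of the brightest and the dimmest probe differed in 9 of the 23 (39.1%), against 1669 of the 6111 (27.3%). Psmd1 gave 0.14 with its brightest and -0.08 with its dimmest probe, and Psma4 gave 0.14 and -0.09. The lid gene Psmd6 gave 0.06 and -0.18, and Psme4 0.09 and -0.29. Psma6 gave 0.03 with its dimmer probe. With the dimmest probe throughout, 29 of the 44 genes lay above 0 and the median difference was 0.04, and the core lay 0.015 below the regulatory particle in place of above it.

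**Figure D5:**
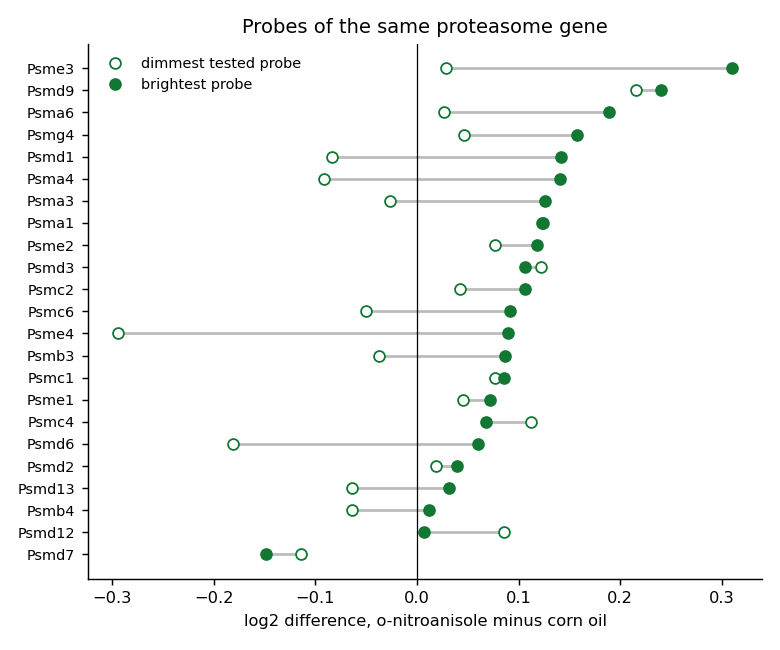
Log2 difference (horizontal axis) by the dimmest (open) and the brightest (filled) tested probe of the 23 genes with several tested probes, 1 gene per line. The filled point lies to the right in 19 of 23 genes; Psme3 has 0.03 and 0.31.

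Genes that work with the proteasome had differences of a like size. Of 18 partners tested (of 25 listed), 16 lay above 0 (88.9%, against 56.0% of all features) with a median of 0.08. At an unadjusted p under 0.05, 2 were higher (11.1%, against 11.8% of all features) and none was lower (against 7.12%). Nfe2l1, the transcription factor NRF1 that drives subunit genes, measured 0.76, 0.83 and 0.69 in corn oil rats and 1.29, 0.98 and 1.12 in o-nitroanisole rats. All treated rats exceeded all controls, with a difference of 0.37 ± 0.10 (1 of the 2, adjusted p = 0.154). The other was Ubqln4, a shuttle that carries ubiquitinated proteins, at 0.17 ± 0.06 (adjusted p = 0.242). Nfe2l2, or NRF2, measured 3.61, 3.84 and 3.99 against 3.94, 3.91 and 4.24 with overlap, a difference of 0.22 ± 0.14 (adjusted p = 0.447). Known NRF2 targets had larger differences of both signs. Of 7 tested, 4 were higher (57.1%, against 11.8% of all features) and 2 lower (against 7.12%) at an unadjusted p under 0.05. None passed the adjusted threshold in the default fit. Hmox1, which breaks down heme, differed by 1.15 ± 0.22 (adjusted p = 0.116), and Gclm, of glutathione synthesis, by -1.24 ± 0.25 (adjusted p = 0.118).

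Of the genes for ubiquitin and its activation, Ubb, a polyubiquitin gene, differed by 0.01 ± 0.06, and the ubiquitin-activating enzymes Uba1 and Uba6 by 0.06 ± 0.06 and 0.13 ± 0.06. None of these 3 had an unadjusted p under 0.05. Heat shock and proteotoxic stress genes had differences of both signs. Of 7 tested (of 9 listed), 1 was higher (14.3%, against 11.8% of all features) and 3 lower (against 7.12%) at an unadjusted p under 0.05. Sqstm1, the autophagy receptor p62, measured 4.51, 4.45 and 4.37 in corn oil rats and 4.91, 4.88 and 4.98 in o-nitroanisole rats, with a difference of 0.48 ± 0.07 (adjusted p = 0.0880). It passed with the trend and robust options (adjusted p = 0.0248). Hsp90ab1 was lower by 0.34 on the log2 scale in the treated rats, -0.34 ± 0.07 (adjusted p = 0.119, and 0.0410 with the trend and robust options). Hsp90aa1 gave -0.32 ± 0.09 and Hsph1, a cochaperone of HSP70, -0.37 ± 0.15, neither passing in either fit.

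Other multi-subunit complexes gave medians from 0.03 to 0.10. The COP9 signalosome, which resembles the lid in its makeup, had a median of 0.10 over 9 genes. At an unadjusted p under 0.05, 2 were higher (22.2%, against 11.8% of all features), Cops2 at 0.19 ± 0.06 and Gps1 at 0.14 ± 0.05. The translation factor eIF3 had a median of 0.07 over 11 tested genes (of 13 listed), with Eif3i at 0.22 ± 0.06. The chaperonin CCT had a median of 0.03 over 8 genes, with none at that p and none higher without overlap (against 17.6% of all features).

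Some cell type markers had larger differences, with medians of 0.69 over red blood cell, 0.35 over immune cell, 0.33 over collecting duct, 0.15 over renal cortex and 0.06 over medulla markers. Signs were mixed in every list but that of red blood cells, where all 11 lay above 0. Immune cell markers had 6 above 0 (54.5%, against 56.0% of all features) and 5 below. The 6 include Cd79b, which was well above background on only 4 arrays. Without overlap, 5 immune cell markers were higher (45.5%, against 17.6% of all features) and 0 lower (against 9.56%). Collecting duct markers had 8 above and 2 below, renal cortex markers 6 and 4, and medulla markers 3 and 1. All 10 tested markers of the renal cortex (of 11 listed) exceeded background clearly on every array, and their levels summed to 1379 to 1440 times the array's 75th percentile in corn oil rats and 1429 to 1487 in o-nitroanisole rats. Red blood cell markers summed to 442 to 510 in corn oil rats and 682 to 833 in o-nitroanisole rats. Without overlap, 9 of 11 tested (of 16 listed) were higher (81.8%, against 17.6% of all features). Of the 11, 10 were well above background on every array. The other, Hemgn, was so on 5 arrays, with its lowest level (-5.73) in corn oil rat 1. It entered the tests only through the o-nitroanisole group, where it was higher, so it adds nothing to these counts. Hbb, a globin, differed by 0.67 ± 0.10. Collecting duct markers, 10 of 10 tested, summed to 177 to 193 against 213 to 235, with 7 higher without overlap (70.0%, against 17.6% of all features). Medulla markers, 4 of 4, summed to 122 to 158 against 122 to 145, and immune cell markers, 11 of 13 listed, to 101 to 108 against 102 to 115. The medulla sum rests mostly on Aqp1, at 6.74, 6.69 and 6.76 in corn oil rats. Slc14a2, at -3.20, -3.07 and -3.52 in the same rats, adds almost nothing to it. The part of these cell types in the proteasome result was not tested.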

How the data were processed

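RNA of 6 rats was hybridised to 6 arrays, 1 Cy3 colour each. Per the file headers, the deposited scanner files hold the processed signal, a background-subtracted spot intensity; per the submitters' processing notes it was made with Agilent Feature Extraction 10.7. The deposited value table holds a ratio, each column being the processed signal over that array's 75th percentile, as checked against the scanner files. Its corn oil columns match the corn oil files in another replicate order, so the number of a corn oil rat is not settled, but its group is.

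Probes were named by accession through a RefSeq gene table of assembly GRCr8 (27460 of 33356 matched); the headers name an older build, so no array coordinates are given. The processed signal was divided by the 75th percentile of its array and taken to log2. Spots with outlier marks were set to missing and no probe was saturated. A probe was tested if well above background on all arrays of at least 1 group. The brightest tested probe stood for its gene, and unnamed probes stayed as features, 32428 in all. The 75th percentile lay between 905 and 1041 units, and 66.4% to 71.5% of probes were well above background; 3 arrays per group limit the precision. The p-values set each group difference against the spread between these 3 rats per group, moderated over all features. With 1 array per rat, array noise is part of that spread, and the slide is part of the group difference.

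The o-nitroanisole and corn oil arrays were compared in R 4.3.3 by the functions lmFit and eBayes of limma 3.58.1, with Benjamini-Hochberg adjustment over all features. SE is the moderated error. Tables were built in pandas 2.3.3 and numpy 2.4.6, and plots in matplotlib 3.10.9, under Python 3.11.15. The fit was tested on simulated data. The members, the 13 lists and the motifs were chosen with earlier results of these data known; of 8 motifs searched, 4 are given.

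Values in all rats are given for the highest and lowest gene of each class and for Psmb5, Psmb6, Psmb7, Psmb10, Psmd4, Psmd14, Psme1 to Psme4 and Pomp, and, of the other lists, genes at an unadjusted p under 0.05 (at most 3 per direction), Nfe2l1 and Nfe2l2. Further genes named, among them Psma7, Psmd10, Psmc6, Ubb, Uba1, Uba6, Tap1, Gbp2, Irf1, Hbb and the members compared across probes, were chosen after their values were seen. The list of ubiquitin genes as a whole is not reported here. The planned normexp alternative used the median signal and median background with an offset of 50. Of 24 alternatives tried, 8 were added after seeing the data.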

Additional observations from a re-analysis of the deposited data

How the results depend on the processing

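No proteasome gene passed an adjusted p of 0.05 in limma under any of the 24 alternatives. Few features passed at all. Of all 32428 features, 522 (1.61%) passed with the trend and robust options, 115 with normexp, and 0 with quantile or median scaling. Of the 26 genes named by rule, 12 kept their direction in all 24 alternatives. For the values below that moved or turned, the cause was not tested. At an unadjusted p under 0.05, the 4 higher genes (9.09%, against 11.8% of all features) became 8 with normexp (18.2% against 14.3%), 1 with quantile scaling (2.27% against 8.79%), 12 with the trend and robust options (27.3% against 13.0%) and 1 with the dimmest probe (2.27% against 11%), and 1 to 3 when single arrays were left out. The count of lower genes was 0 (against 7.12% of all features). It became 1 (2.27%) with normexp (against 7.65%), quantile scaling (against 7.95%), the trend and robust options (against 6.83%) and the dimmest probe (against 7.13%). With single arrays left out of the default fit it was 0 to 1 (0.0% to 2.27%, against 5.45% to 6.84%). Equal replicate numbers were not shown to pair rats (correlations of 0.09, 0.06 and 0.03). With the replicate block 2 genes were higher (4.55%, against 9.69% of all features). It was also 2 when the block took the corn oil numbers of the value table (4.55% against 9.2%). With either block no proteasome gene and no other feature passed the adjusted threshold.

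The median difference of all members was 0.013 with quantile scaling, 0.058 with the mean of probes and 0.044 with the dimmest probe. The core median was 0.013 with quantile scaling, 0.061 with the mean of probes and 0.034 with the dimmest probe, and the regulatory particle median was -0.001 with quantile scaling and 0.036 with normexp. The core minus the regulatory particle was 0.014 with quantile scaling, 0.007 with the mean of probes, -0.015 with the dimmest probe and 0.006 to 0.057 when single arrays were left out.

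Single genes changed sign as follows. With the dimmest probe Psmb4 was -0.064, Psmd1 -0.084 and Psme4 -0.294. With the mean of probes Psmb4 was -0.026 and Psme4 -0.147. With median scaling Psmc3 was 0.011 and Psmg2 0.010. With normexp Psmb4 was -0.044, Psmb7 -0.114, Psmc3 0.030, Psmd1 -0.005, Psmd14 -0.065, Psmd3 -0.039 and Psmd5 0.060. With quantile scaling Psmb10 was -0.002, Psmb4 -0.088, Psmb5 -0.080, Psmb7 -0.039, Psmd2 -0.082 and Psme1 -0.029. When single arrays were left out, Psma8 ranged from -0.079 to 0.371, Psmb10 from -0.165 to 0.149, Psmb4 from -0.012 to 0.055, Psmb5 from -0.013 to 0.043, Psmb7 from -0.018 to 0.066, Psmc3 from -0.036 to 0.013, Psme4 from -0.062 to 0.186 and Psmg2 from -0.039 to 0.033. The slide block was not run, since no slide held both groups. Dim probes, such as that of Psma8, limit what can be seen.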
